A study of Mus musculus with 13 samples.

Results

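The 5 whole aortas of mice fed a Western diet without any drug are described, which the labels title Western Diet 1 to Western Diet 5 and which are called WD 1 to WD 5 here. They are 5 of the 13 poly-A RNA libraries of a study that asked whether auranofin affects atherosclerosis. All mice of the study were ApoE-/-, started the diet at 6 weeks of age and stayed on it for 16 weeks. The diet held 40% of its energy as fat, 43% as carbohydrate and 17.3% as protein. The WD group had no drug in the diet. The other 8 aortas came from mice given auranofin at 3 mg/kg/day (n = 3), atorvastatin at 10 mg/kg/day (n = 3) or both drugs (n = 2), and are called drug-treated aortas. Auranofin is an oral gold salt given for arthritis, and atorvastatin blocks cholesterol synthesis as other statins do. No wild-type mouse and no mouse on normal chow was analysed here, so the WD aortas are a baseline for the drugs and not for the disease. The labels do not tie the libraries to separate named mice, so every spread and p-value below measures the spread between these samples only.

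Apolipoprotein E lets the liver clear remnants of cholesterol-rich lipoproteins from blood. Without it cholesterol builds up in plasma, lipoproteins lodge in the inner layer of the aorta, and macrophages that take them up become foam cells, the first visible stage of a plaque. Medial smooth muscle cells can lose contractile proteins, move into the plaque and make matrix, and late plaques can calcify with cells that resemble cartilage. The wall around the plaque consists of an endothelial lining, a smooth muscle media with elastic lamellae, and an adventitia of fibroblasts that borders on fat.

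The WD libraries held 22219720 to 26079566 counts and the drug-treated ones 19703683 to 24156822, and 22432 to 25464 genes had a count in a WD library. Levels are given as CPM, a gene's count relative to the column total of its library, and runs of 5 values stand in the order WD 1 to WD 5. Defining markers of each layer were present in every WD aorta: smooth muscle myosin heavy chain Myh11 at 3641, 534, 4516, 3369.5 and 2421 CPM, the endothelial adhesion molecule Pecam1 at 444, 187, 369, 621 and 335 CPM and the adventitial fibroblast gene Pi16 at 307, 168, 217, 380.5 and 269 CPM. The T cell gene Cd3e, the B cell gene Cd79a and the catecholamine genes Th and Dbh stayed under 4 CPM in each WD library. Xist stayed under 1 CPM, and the Y-linked Ddx3y stood at 82, 24.2, 78.6, 107 and 60.9 CPM. Transcripts of Apoe, the gene disrupted in the strain, were counted at 21.5, 10.2, 6.36, 18 and 12.5 CPM in WD 1 to WD 5, against 8.28 to 17 CPM (median 12.9) in the drug-treated aortas. With no wild type to compare, these values do not check the genotype.

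Mitochondrial RNA took a share that differed widely between the WD libraries. The 37 mitochondrial genes held 9.36%, 26.9%, 19.4%, 13.5% and 24.2% of the counts in WD 1 to WD 5, against 11.3% to 38.8% (median 17.6%) in the drug-treated aortas. A further 5.22%, 16.9%, 10.3%, 7.02% and 14.8% of counts in WD 1 to WD 5 fell on 7 unnamed genes of chromosome 1 (Gm10222, Gm10925, Gm28437, Gm28438, Gm28439, Gm28661 and Gm29216). Counts of Gm28661 were 1.0007 to 1.0011 times those of mt-Co2 in every WD library, and counts of Gm28437 were 1.002 to 1.003 times those of mt-Co3. Counts of Gm10925 were 1.22 to 1.37 times those of mt-Atp6. Such copies are near-identical to the mitochondrial genes. How reads that match both were counted is not given in the sources used here, so the levels of both partners are uncertain. The 7 genes are counted with the mitochondrial ones from here on, a choice made after their values were seen, and all other genes are called nuclear. The plot of counts on mitochondrial genes and their copies shows these shares.

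**Figure D1:**
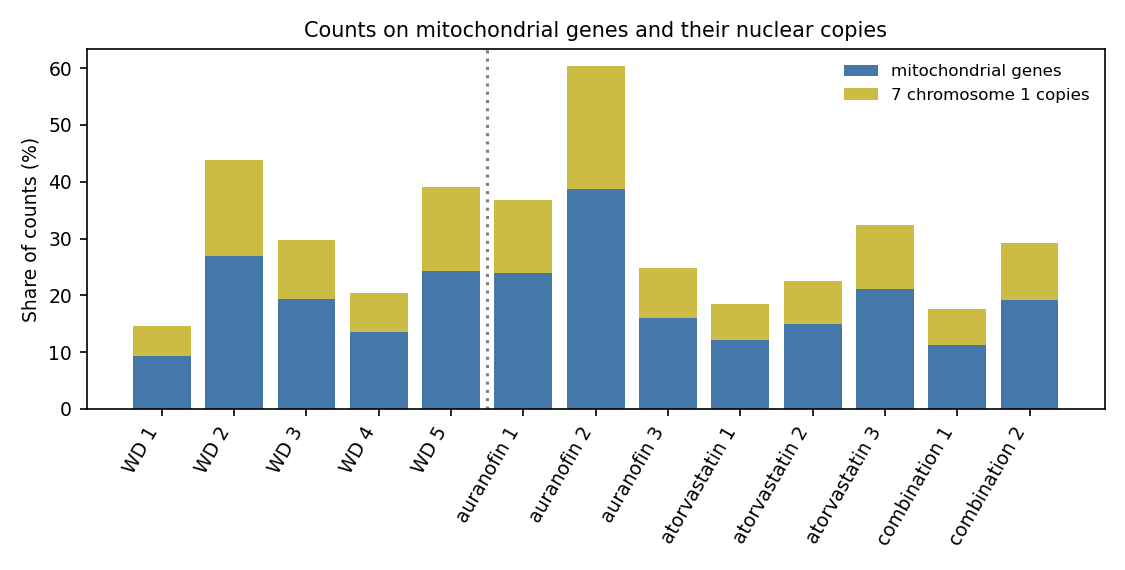
Share of all counts (%) on the mitochondrial genes (blue) and on their 7 chromosome 1 copies (yellow) in each library, with the 5 WD libraries left of the dotted line and the 8 drug-treated ones right of it. WD 2 and WD 5 have the highest WD bars, 43.8% and 39.0% in all, and WD 1 the lowest at 14.6%; auranofin 2 is the highest of all libraries at 60.3%.

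WD 2 and WD 5 also stood apart by exon length. Protein-coding genes with a mean of at least 10 CPM over the 5 WD libraries (8829 genes) were split into sixths by exon length. Each library was set against the median of all 13. The genes were thus chosen by their WD levels, also where drug-treated aortas are given. In WD 2 the median gene stood 0.32 above that level (log2) in the shortest sixth and at -1.40 in the longest, and in WD 5 at 0.27 and -0.76. The other WD libraries ran from 0.36 to 0.06 (WD 1), from -0.05 to 0 (WD 3) and from 0.14 to 0.19 (WD 4). The difference between the longest and the shortest sixth was -1.72 in WD 2 and -1.03 in WD 5, against -0.63 to 0.76 in the drug-treated aortas. Counts of genes that vary widely are therefore given with and without WD 2 and WD 5, a choice made after seeing the data.

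**Figure D2:**
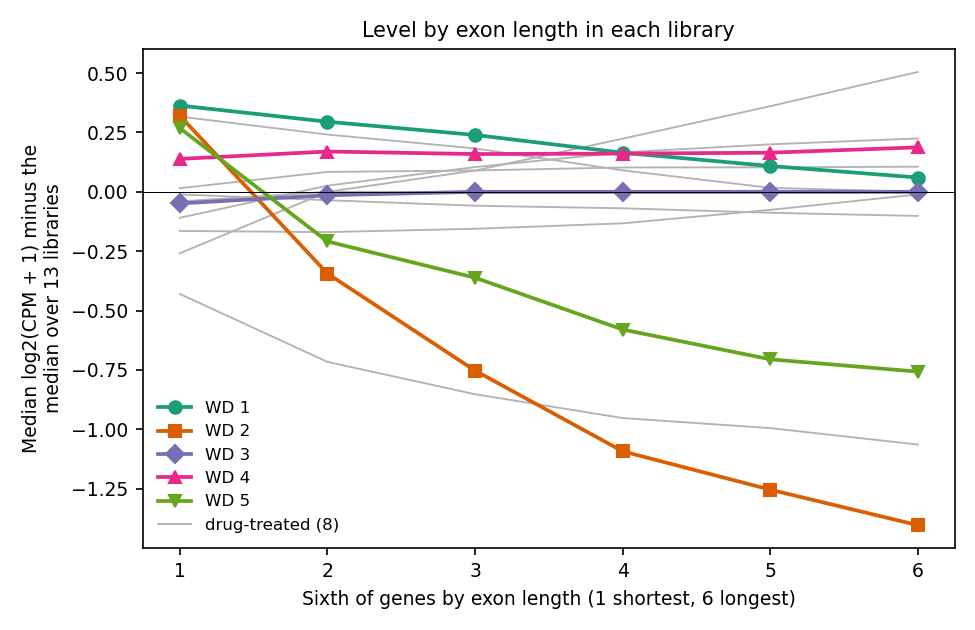
Median log2(CPM + 1) minus the median over 13 libraries (vertical axis) in 6 groups of genes ordered by exon length (horizontal axis), with 1 coloured line per WD library and grey lines for the 8 drug-treated ones. The lines of WD 2 and WD 5 slope down to -1.40 and -0.76, while those of WD 3 and WD 4 are nearly level.

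The most abundant nuclear transcripts of the WD aortas were those of smooth muscle and of wall matrix. The 20 nuclear genes with the highest mean CPM held 7.66% ± 0.9 (SD, n = 5) of all counts in the WD libraries. Acta2 (ENSMUSG00000035783), smooth muscle alpha-actin, led them at 14906, 14374, 12206, 10827 and 16740 CPM in WD 1 to WD 5, a mean of 13811 ± 2322 CPM (SD, n = 5). Its values in the drug-treated aortas were 2979.5 to 15418 CPM (median 10636), so the ranges overlap. Other genes of the contractile apparatus and the actin skeleton in this set were Myl9 and Myl6, light chains of myosin, Myh11, its heavy chain, Flna, which crosslinks actin, Dstn, which severs it, Tmsb4x, which binds its monomers, and the non-muscle actin Actb. Myl9 stood at 2771, 3394, 2531, 1960.4 and 3957 CPM and Myl6 at 2603, 4050.1, 2018, 1952 and 3420.3 CPM in WD 1 to WD 5, with WD 2 and WD 5 highest for both. Flna stood at 5715, 1423, 6304, 4661 and 4375 CPM, and here WD 2 was lowest, as it was for Myh11. Both long transcripts (9400 and 7599 exon bases) varied far less once WD 2 and WD 5 were left out, with an SD of log2(CPM + 1) of 0.22 instead of 0.86 for Flna and of 0.22 instead of 1.24 for Myh11.

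Matrix genes made up the second group. Bgn, the small proteoglycan biglycan, stood at 7661, 2788, 5130.1, 5616 and 4333 CPM in WD 1 to WD 5, against 1433 to 6952 CPM (median 5269) in drug-treated aortas. Mgp, a matrix protein that inhibits calcification, stood at 5267, 7445, 2995, 4035 and 2389 CPM, with WD 2 highest and WD 5 lowest. Eln, the precursor of elastin, stood at 4742, 566, 2722, 3657 and 1564 CPM, with WD 1 at the top and WD 2 at the bottom. Fn1, fibronectin, and Sparc, a collagen-binding glycoprotein, averaged 2034 ± 1034 CPM and 2326 ± 742 CPM (SD, n = 5). Others of the 20 were Eef1a1, a translation factor, Vim, the filament protein vimentin, Fth1, the heavy chain of ferritin, Igfbp7, a secreted protein of the vessel wall, Ctsb, a lysosomal protease, and Scd1, a desaturase of fatty acid synthesis. By column total Vim and Dstn were the most even of them, with SDs of 0.17 and 0.14, and Scd1 the least even at 1.68. With levels scaled by the TMM factors of edgeR the most even were Bgn (0.20) and Sparc (0.23), and Scd1 was still the least even (1.44).

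**Figure D3:**
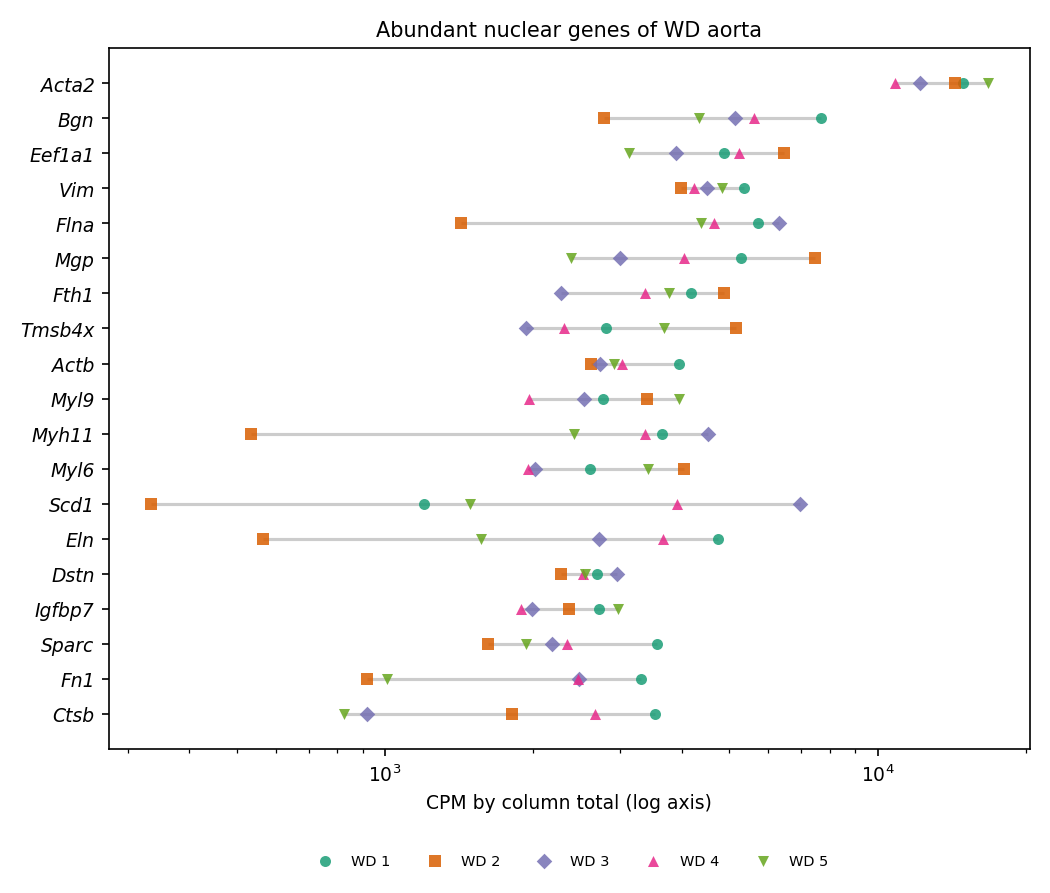
CPM by column total (log axis) of 19 of the 20 nuclear genes with the highest mean in the WD aortas, ordered from the top by that mean, with 1 symbol per WD library and a grey line over their range. Acta2 stands alone at 10827 CPM or more in all 5 libraries, and Scd1, Myh11 and Eln have the widest ranges.

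Shares of counts favour long transcripts, so the genes were also ranked per kilobase of exon. Of the 20, 10 were also among the 20 highest per kilobase. Acta2 led that ranking too, with a mean of 6289 CPM per kilobase over the WD aortas, followed by Mgp with 3729, Myl9 with 2515, Tmsb4x with 2316 and Igfbp7 with 1972 CPM per kilobase. Long transcripts such as Flna (478 CPM per kilobase) and Fn1 (174 CPM per kilobase) left the set. Tagln, transgelin, is usually among the strongest smooth muscle transcripts, but stood at only 37.2, 30.3, 24.7, 23.3 and 52.9 CPM in WD 1 to WD 5, against 1022, 934, 943, 711 and 1047 CPM for Cnn1, calponin. In the mouse annotation of build GRCm38, 67.9% of the exon bases of Tagln lie in exons of other genes, 62.4% in those of Gm48529 alone. The library was not stranded, so the level of Tagln is uncertain.

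A fixed list of 18 contractile smooth muscle genes summed to 38597, 25440, 37185, 29572 and 39284 CPM in WD 1 to WD 5, against 6612 to 42779 CPM (median 30940) in the drug-treated aortas. The sum thus varied 1.54-fold among the WD aortas. To describe variation, a gene was said to span 4-fold where its log2(CPM + 1) ranged over at least 2 units among the WD libraries. That held for 13.1% of the 14627 genes with a mean of at least 1 CPM, and for 3.26% without WD 2 and WD 5. Both shares are the background for the counts of listed genes below. Of these contractile genes 9 of 18 spanned 4-fold, and none without WD 2 and WD 5. Acta2 had an SD of 0.25 and Cnn1 of 0.22 by column total, and of 0.58 and 0.54 with TMM scaling.

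Collagens and elastic fibre genes varied with WD 2 and WD 5. The 13 collagens of the fixed list summed to 12124, 3892, 9257, 9721 and 5540.3 CPM in WD 1 to WD 5, and 9 of them were lowest in WD 2 and the other 4 in WD 5. Col3a1, a fibrillar collagen, stood at 3095, 1131, 1648, 2392 and 1044 CPM in WD 1 to WD 5, against 602 to 2875 CPM (median 2094) in drug-treated aortas. Col1a1 was steadier at 1313, 691, 953, 1267 and 667 CPM. The median SD of the collagens was 0.84, beside 0.53 for all genes of at least 1 CPM, and 0.25 without WD 2 and WD 5. It was 0.37 after log2 levels were centred within 20 groups of exon length in each library. The 13 elastic fibre genes summed to 8807, 2241, 5685, 7214 and 4021 CPM, with 10 of them lowest in WD 2, and their median SD of 0.83 became 0.31 without both libraries. Proteoglycans followed the same order of libraries, with sums of 14350, 5732, 9829, 12005 and 7458 CPM. Within them Lum, lumican, differed: it stood at 1449.9, 585, 247, 1064 and 153 CPM, lowest in WD 5 and WD 3 and not in WD 2.

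Endothelial genes were mostly highest in WD 4 and lowest in WD 2. The 15 endothelial genes summed to 1274, 576, 982, 1713 and 975 CPM in WD 1 to WD 5, a 2.98-fold range. Of them 13 were highest in WD 4 and 11 lowest in WD 2. This order was not particular to them: among all 1923 genes that spanned 4-fold, WD 4 was highest for 944 and WD 2 lowest for 1070. Vwf, the von Willebrand factor that endothelium stores, stood at 213, 74.9, 152, 273 and 139.9 CPM, and Cdh5, its junctional cadherin, at 71.3, 24.3, 61.9, 118 and 31.9 CPM. Of the 15, 4 of 15 spanned 4-fold, 26.7% beside 13.1% of all genes. Without WD 2 and WD 5 none did, beside 3.26% of all genes. With TMM scaling or with levels centred by exon length the count was 0 as well. The 13 adventitial fibroblast genes summed to 4652, 2549, 3009.6, 4675 and 3026 CPM, a 1.83-fold range, and Pdgfra, a growth factor receptor of fibroblasts, stood at 69.8, 28.5, 60.5, 101 and 33.6 CPM. Dpt, dermatopontin, stood at 214, 134, 151, 271 and 101 CPM, highest in WD 4 and WD 1. Of the fibroblast genes 1 of 13 spanned 4-fold, with and without WD 2 and WD 5, and that was Lum.

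Across all genes, the 5 untreated aortas were far from alike. Of the 14627 genes with a mean of at least 1 CPM, 1923 spanned 4-fold, and the median SD of log2(CPM + 1) was 0.53. In the drug-treated aortas the median of the pooled within-group SD of the same genes was 0.39. WD 2 was the lowest library for 1070 of the 1923 genes (55.6%) and WD 5 for 570, while WD 4 was the highest for 944. These counts depend on the scaling: of the 1268 genes that span 4-fold with TMM, WD 2 was the lowest library for 147 and the highest for 784, WD 3 was the lowest for 607 and WD 4 the highest for 200. With levels centred by exon length, WD 2 was the lowest for 15.9% of 761 genes and WD 3 for 36.4%. The median exon length of the 1923 genes was 5461.5 bases, against 4162.5 bases for all genes of at least 1 CPM. Without WD 2 and WD 5 the count was 477, a share of 3.26%. The biological coefficient of variation that edgeR fitted to the WD libraries was 0.383 with all 5 and 0.259 without those libraries, beside 0.32 for the auranofin and 0.22 for the atorvastatin libraries.

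The genes at the top of the ranking were mostly highest in WD 1 or WD 4. Among the 9286 genes with a mean of at least 10 CPM, the 50 with the largest SD were highest in WD 1 (24 genes) or WD 4 (23 genes) with 3 exceptions. WD 1 and WD 4 both stood above the other libraries for 40 of the 50, as they did for 46.7% of all 9286 genes. WD 3 and WD 5 were the lowest libraries for 34 of the 50, as they were for 11.5% of all 9286 genes. The leading 30 have an SD of at least 2.04, and the next gene has 2.01. Most belong to 3 groups that are described in turn: macrophage genes, cartilage genes and heart muscle genes. Leaving out WD 2 and WD 5, 39 of the 50 stayed in the set.

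**Figure D4:**
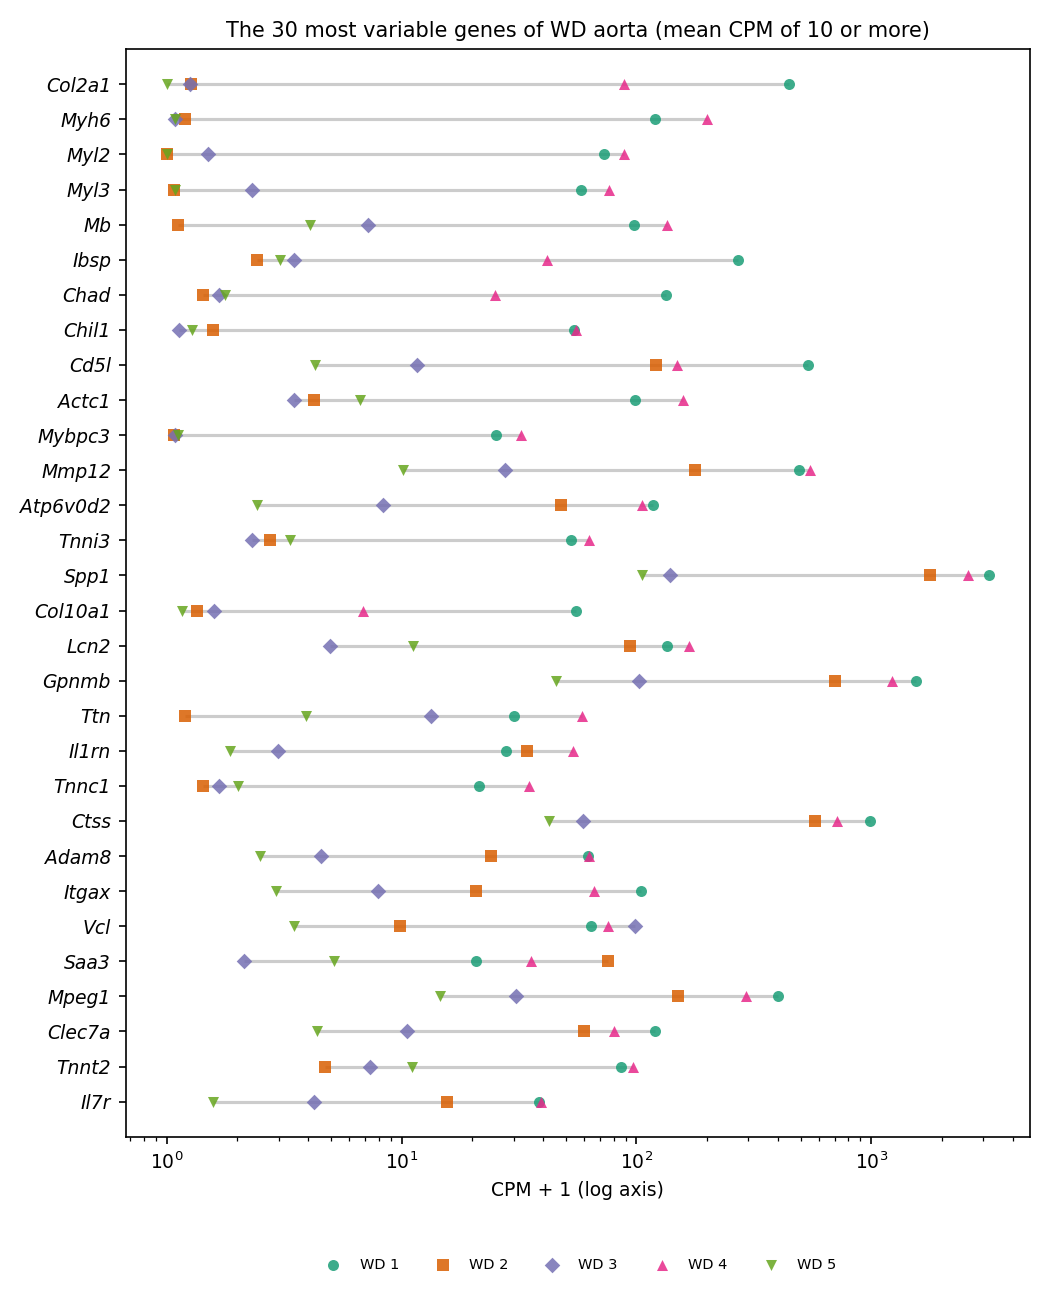
CPM + 1 (log axis) of the 30 genes with the largest SD of log2(CPM + 1) among the WD libraries at a mean of at least 10 CPM, ordered from the top by SD, with 1 symbol per library and a grey line over the range. Heart and cartilage genes (Col2a1 to Chad) have WD 1 and WD 4 far to the right of the other 3, and macrophage genes (Cd5l, Mmp12, Spp1, Gpnmb, Ctss) have WD 3 and WD 5 far to the left.

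Macrophage transcripts separated WD 1, WD 2 and WD 4 from WD 3 and WD 5. The 16 genes of a general macrophage list summed to 5187, 4206, 491, 3724 and 691 CPM in WD 1 to WD 5, a 10.6-fold range, against 1007 to 3494 CPM (median 2618) in the drug-treated aortas. Cd68, a lysosomal protein of macrophages, stood at 257, 224, 18.9, 214 and 20.4 CPM in WD 1 to WD 5 and at 47.3 to 189 CPM (median 123) in drug-treated aortas. Lyz2, lysozyme, stood at 2432, 2051, 190.1, 1635 and 244 CPM, the receptor gene Csf1r at 107, 56.5, 31.7, 139 and 22.4 CPM and Adgre1, which encodes F4/80, at 66.8, 56.7, 11.7, 75.2 and 9.05 CPM. In each of these genes the 3 high and the 2 low libraries do not overlap, and the low ones lie below the lowest drug-treated aorta. In whole tissue, fewer macrophages and less RNA per macrophage cannot be told apart. All 16 genes spanned 4-fold, and all 16 did so without WD 2 and WD 5. Their median SD was 1.48 in the WD aortas and 0.63 within the drug-treated groups.

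Many foam cell genes had the same low libraries. The 19 genes of the list summed to 14921, 7949, 3747, 13257 and 2875 CPM in WD 1 to WD 5, a 5.19-fold range, narrower than that of the general macrophage list, although some members ranged more widely. Spp1 (ENSMUSG00000029304), osteopontin, which foamy macrophages secrete, stood at 3162, 1779, 138, 2587 and 105 CPM in WD 1 to WD 5, against 449 to 2705 CPM (median 1296) in drug-treated aortas. Its highest WD library was 30.2 times its lowest, and its SD was 2.40 with all 5 libraries and 2.53 without WD 2 and WD 5. In the GRCm38 annotation 18.8% of the exon bases of Spp1 also lie in another gene, Gm42793. Gpnmb, a lysosomal membrane glycoprotein of lipid-laden macrophages, stood at 1553, 697, 101, 1229 and 44.4 CPM and Trem2, a lipid-sensing receptor, at 96.3, 75.6, 5.82, 69.2 and 4.99 CPM. Mmp12, the macrophage elastase, stood at 492, 177, 26.7, 549.5 and 9.17 CPM and Ctss, a lysosomal protease that can cut elastin, at 983, 578, 58.2, 717 and 41.6 CPM. Atp6v0d2, a subunit of the proton pump of lysosomes, was at 117, 46.7, 7.37, 105 and 1.42 CPM. For all 6 genes WD 5 was the lowest library and WD 3 the next.

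Further members of the 30 most variable genes had WD 5 lowest and WD 3 next as well. Cd5l, a secreted protein of tissue macrophages that binds lipids, stood at 537, 119.7, 10.6, 147 and 3.29 CPM in WD 1 to WD 5, where WD 1 was 163 times WD 5. Itgax, the integrin known as CD11c, stood at 104, 19.7, 6.95, 65.3 and 1.91 CPM, and Mpeg1, a pore-forming protein of phagocytes, at 399.6, 149.8, 29.8, 292 and 13.6 CPM. Clec7a, a receptor for fungal glucans, stood at 119, 58.9, 9.5, 79.2 and 3.37 CPM and Adam8, a metalloprotease of leukocytes, at 61.2, 23.1, 3.56, 61.7 and 1.5 CPM. Such receptors and proteases mark phagocytes in general rather than foam cells alone. Il1rn, which blocks the interleukin-1 receptor, stood at 27, 33.4, 1.97, 52.6 and 0.852 CPM, highest in WD 4. Il7r, an interleukin receptor chain, stood at 37.4, 14.6, 3.22, 38.3 and 0.568 CPM. With means of at least 100 CPM, Lgals3, galectin-3, and Lcp1, an actin bundler of leukocytes, were also low in WD 3 and WD 5, at 536, 526, 40.9, 461 and 41.7 CPM and 243, 98.2, 27, 262 and 11.5 CPM. Of the 19 listed foam cell genes 15 of 19 spanned 4-fold, and 11 without WD 2 and WD 5. Exceptions with all 5 libraries were Fabp4, Plin2, Cd9 and Ctsd, of which Fabp4, a fatty acid carrier that adipocytes also make, was lowest in WD 1 at 199, 295, 649, 677 and 552 CPM. Of the 19, 14 were lowest in WD 5, 2 in WD 3 and 2 in WD 2. The last were Lpl, at 697, 206, 403, 1060 and 276 CPM, and Cd36, at 141, 71.8, 197, 381 and 72.1 CPM, both of which spanned 4-fold.

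Genes of antigen presentation and of inflammation were low in WD 3 and WD 5 too. All 7 genes of the MHC class II list spanned 4-fold, and 4 without WD 2 and WD 5, with sums of 1489.8, 1581, 226, 1114 and 255 CPM in WD 1 to WD 5, against 261 to 1055 CPM (median 747) in drug-treated aortas. Cd74, the invariant chain, stood at 546, 497, 84, 409 and 80.3 CPM and H2-Aa, a class II alpha chain, at 368, 452, 57, 285 and 60.2 CPM, where WD 2 was highest. Of 15 cytokine and chemokine genes with a mean of at least 1 CPM, 13 spanned 4-fold, and 9 without WD 2 and WD 5. Il6, a cytokine that drives the acute phase, stood at 9.07, 9.13, 0.586, 28.7 and 0.325 CPM, and Ccl2, a chemokine that attracts monocytes, at 20.1, 24.8, 1.09, 41.3 and 3.65 CPM. The most abundant chemokine of the list, Cxcl12, which stromal cells make, varied less, at 353, 211, 164, 308 and 113 CPM. Lcn2, an iron-carrier-binding protein listed with neutrophil genes, stood at 134, 92.6, 3.98, 167 and 10.2 CPM and Saa3, an acute phase apolipoprotein, at 19.9, 74.6, 1.13, 34.7 and 4.18 CPM. The granule genes Mpo, Elane, Camp and Ngp of neutrophils stayed under 1 CPM in all WD libraries.

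Genes of resident adventitial macrophages varied less in sum, and lymphocyte genes had other orders. The 10 genes of the resident macrophage list summed to 1007, 823, 675, 1037 and 782 CPM in WD 1 to WD 5, a 1.54-fold range, again with WD 3 and WD 5 lowest. Its most abundant members, Gas6 and Cbr2, averaged 379 and 313 CPM and led the sum. Single genes varied more: 4 of 10 spanned 4-fold, 40% beside 13.1% of all genes. Without WD 2 and WD 5, 2 of 10 did, beside 3.26% of all genes. Members of this list were not alike: Ccl8, a chemokine, followed the macrophage genes at 35.1, 36.9, 4.23, 32.1 and 8.48 CPM. Cbr2, a carbonyl reductase, stood at 315, 365, 215, 248 and 419 CPM in WD 1 to WD 5, highest in WD 5, and Mrc1, the mannose receptor, at 54.7, 18.9, 26.7, 119 and 12 CPM, highest in WD 4. T cell genes summed to 25.9, 18.3, 34.1, 15.2 and 7.87 CPM and B cell genes to 40.6, 51.7, 31.1, 57.9 and 50.4 CPM, with Ighm, the heavy chain of IgM, giving 30.1, 38.5, 17.2, 44.9 and 26.2 CPM of the last. In the drug-treated aortas the B cell sum ran to 979 CPM. Rag1 and Dntt, which recombine antigen receptor genes in developing lymphocytes, stood at 0, 0.0767, 4.14, 0 and 0 CPM and 0, 0.153, 2.8, 0 and 0 CPM, with WD 3 the high library; both were singled out after their values were seen.

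Cell division genes were low and followed the macrophage order loosely. The 16 cell cycle genes summed to 158, 121, 83, 157 and 74.3 CPM in WD 1 to WD 5, with 13 of them lowest in WD 5 and 10 highest in WD 4. Pcna, a clamp of DNA polymerase, stood at 65.7, 54.1, 37.8, 56.3 and 40.8 CPM and Mki67, a marker of cycling cells, at 11.2, 5.83, 5.15, 12.7 and 1.38 CPM. Interferon-induced genes summed to 296, 275, 123, 293 and 159 CPM, lowest in WD 3 for 9 of 14 genes. Bst2, which tethers viruses to the membrane, stood at 59.6, 91.5, 20.3, 51.1 and 44.8 CPM and Oas1a, a sensor of viral RNA, at 19, 20.4, 3.47, 25.2 and 4.79 CPM.

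Some genes that smooth muscle cells switch on as they lose their contractile state were low in the same libraries as the macrophage genes. Of the 11 listed, 8 of 11 spanned 4-fold, and 6 without WD 2 and WD 5, with sums of 14922, 11794, 7521, 11930 and 5088 CPM in WD 1 to WD 5. Lgals3 and Lum, given above, are on this list, and Lgals3 is also a macrophage gene. Timp1, an inhibitor of metalloproteases, stood at 264, 290.0, 23.9, 178 and 43.9 CPM, and Thbs1, thrombospondin-1, at 351, 103, 81.3, 354 and 24.3 CPM. Vcam1, an adhesion molecule that binds leukocytes, stood at 952, 189, 119, 572 and 91.7 CPM in WD 1 to WD 5. WD 3 and WD 5 were the lowest libraries for these 3 genes. For Vcam1 WD 2, WD 3 and WD 5 all lay below the drug-treated range of 232 to 625 CPM. Other members had another order: Fn1 stood at 3301, 920.1, 2475, 2465 and 1008 CPM and Sox9, the regulator of cartilage fate, at 16.8, 1.61, 5.02, 9.18 and 4.3 CPM, both lowest in WD 2.

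Cartilage genes were mostly highest in WD 1, and the leading ones came next in WD 4 and were near 0 in the other WD aortas. Col2a1 (ENSMUSG00000022483), the main collagen of cartilage, had the largest SD of all genes of at least 10 CPM (4.15). It stood at 446, 0.268, 0.251, 87.8 and 0 CPM in WD 1 to WD 5. Set against a floor of 3 counts in WD 5, where it had none, WD 1 was at least 3664-fold higher. Drug-treated aortas ran from 0.538 to 786 CPM (median 82.2), so the ranges overlap. Ibsp, bone sialoprotein, stood at 270.4, 1.42, 2.47, 40.5 and 2.03 CPM in WD 1 to WD 5, Chad, chondroadherin, at 133, 0.422, 0.67, 24 and 0.771 CPM and Col10a1, the collagen of hypertrophic cartilage, at 54.5, 0.345, 0.586, 5.85 and 0.162 CPM. Acan, aggrecan, was less extreme at 80.0, 4.18, 25.1, 27.9 and 11.8 CPM. Chil1, a secreted chitinase-like protein of macrophages and chondrocytes, stood at 53.2, 0.575, 0.126, 54.1 and 0.284 CPM, about equal in WD 1 and WD 4.

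Of 21 cartilage and calcification genes 17 had a mean of at least 1 CPM and 15 spanned 4-fold (10 without WD 2 and WD 5), although some passed that mean through WD 1. Of the 17, 15 were highest in WD 1. Comp, cartilage oligomeric matrix protein, stood at 138, 21.6, 40.9, 89.2 and 44.1 CPM in WD 1 to WD 5, and Cytl1, a cytokine-like protein of cartilage, at 377, 342, 162, 321 and 439.7 CPM, highest in WD 5. The osteoblast gene Bglap stayed under 1 CPM. Bone regulator Runx2 stood at 5.37, 1.23, 1.63, 5.81 and 0.933 CPM, highest in WD 4 and WD 1.

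Heart muscle genes were high in WD 1 and WD 4, and the main ones were close to absent in WD 2, WD 3 and WD 5. Myh6 (ENSMUSG00000040752), the alpha heavy chain of cardiac myosin, stood at 119, 0.192, 0.0837, 199.7 and 0.0811 CPM in WD 1 to WD 5, and in the drug-treated aortas at 0.0849 to 672 CPM (median 1.06). Myl2, the regulatory light chain of the ventricle, stood at 72, 0, 0.502, 87.2 and 0 CPM in WD 1 to WD 5, and its drug-treated range was 0.125 to 1.1 CPM (median 0.444). Myl3, the essential light chain of the ventricle, stood at 57.1, 0.0767, 1.3, 75.1 and 0.0811 CPM, against 0.0833 to 0.789 CPM (median 0.334) in drug-treated aortas. WD 1 and WD 4 thus had more ventricular light chain RNA than any drug-treated aorta, while Myh6 was higher still in at least 1 of those. The atrial light chain Myl7 stood at 4.89, 0, 0, 0.72 and 0.0406 CPM in WD 1 to WD 5 and reached 111 CPM in a drug-treated aorta.

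Most other sarcomere genes had the same libraries high. Actc1, cardiac actin, stood at 97.4, 3.26, 2.47, 158 and 5.64 CPM in WD 1 to WD 5, and Tnnt2 and Tnni3, cardiac troponins, at 84.7, 3.72, 6.36, 95.3 and 10.1 CPM and 51.9, 1.76, 1.3, 61.6 and 2.35 CPM. Tnnc1, the calcium-binding troponin, stood at 20.4, 0.422, 0.67, 33.8 and 1.01 CPM and Mybpc3, a thick filament protein, at 24.2, 0.0767, 0.0837, 31.1 and 0.122 CPM. Ttn, the giant spring of the sarcomere, stood at 29, 0.192, 12.3, 57.7 and 2.92 CPM, with a value of 12.3 CPM in WD 3 as well. Myl4, another atrial light chain, differed at 15.8, 5.25, 2.76, 4.46 and 5.96 CPM, where WD 4 was below WD 2 and WD 5. Mb, the oxygen store myoglobin, stood at 96.7, 0.115, 6.19, 134 and 3.08 CPM, though 31.9% of its exon bases overlap other genes in the GRCm38 annotation. Of 16 listed heart genes 14 had a mean of at least 1 CPM, several of them through WD 1 and WD 4, and these 14 spanned 4-fold, 13 of them without WD 2 and WD 5. The list summed to 625, 22.7, 57.3, 862 and 42.5 CPM, against 17.1 to 2195 CPM (median 52.2) in the drug-treated aortas.

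Skeletal muscle genes had another distribution. Acta1, skeletal actin, stood at 11.1, 1.3, 51.4, 19 and 15.7 CPM in WD 1 to WD 5, with WD 3 highest. Myh4, the heavy chain of the fastest fibres, stood at 0, 0.115, 32.1, 0.045 and 4.67 CPM, so WD 3 and then WD 5 held it. Ckm, muscle creatine kinase, which heart also uses, stood at 6.3, 0.383, 5.99, 8.78 and 1.79 CPM. Of the 13 listed genes with a mean of at least 1 CPM, 10 were highest in WD 3 and 12 lowest in WD 2. Some, such as Myh1 and Pvalb, passed that mean only through WD 3. The whole list summed to 147, 11.9, 208, 199 and 75 CPM in WD 1 to WD 5, to which Mb gave most in WD 1 and WD 4.

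Genes that make fatty acids were mostly highest in WD 3. Scd1 (ENSMUSG00000037071), which desaturates stearate, stood at 1198, 335, 6941, 3921 and 1490.1 CPM in WD 1 to WD 5, against 2000.5 to 7213 CPM (median 4962) in the drug-treated aortas. Fasn, fatty acid synthase, stood at 182, 72.4, 1499, 634 and 389.6 CPM in WD 1 to WD 5, against 431 to 1738 CPM (median 845). WD 3 was 20.7 times WD 2 for Scd1 and 20.7 times for Fasn. Elovl6, an elongase, stood at 14, 5.79, 114, 36.5 and 27.8 CPM and Pck1, which adipocytes use to make glycerol for fat storage, at 35.7, 16.4, 152, 216 and 77.1 CPM. Of the 16 genes 11 of 16 spanned 4-fold, and 9 of 16 did so without WD 2 and WD 5. Of the 16, 11 were highest in WD 3 and 13 lowest in WD 2.

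Fat cell genes stood beside them. White adipocyte genes summed to 762, 1198, 2042, 3119.5 and 1869 CPM in WD 1 to WD 5, against 1059 to 5050.4 CPM (median 2719) in drug-treated aortas. Adipoq, adiponectin, stood at 33.2, 48, 83.5, 147 and 83.3 CPM and Plin1, which coats lipid droplets, at 29.5, 14.4, 119, 116 and 58.3 CPM in WD 1 to WD 5. Car3, a carbonic anhydrase of fat, stood at 159.8, 209.5, 308, 935 and 291 CPM and Cfd, adipsin, at 94.9, 351, 152, 544 and 303 CPM, where WD 4 was highest and WD 1 lowest. Ucp1, the uncoupling protein of brown fat, stood at 61.6, 75, 598, 189 and 201 CPM in WD 1 to WD 5, against 168 to 1142 CPM (median 405) in drug-treated aortas, and Elovl3, an elongase of brown fat, at 1.32, 2.03, 37.8, 9.27 and 10.1 CPM. Of 12 brown fat genes 10 were highest in WD 3. The part of attached fat in the values of Scd1 and Fasn was not tested.

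Genes of cholesterol synthesis, the target of atorvastatin, spanned 4-fold about as often as all genes did. Its 21 genes summed to 462, 228, 583, 409.6 and 349 CPM in WD 1 to WD 5. Of 20 with a mean of at least 1 CPM 3 spanned 4-fold, 15% beside 13.1% of all genes. Without WD 2 and WD 5 none did, beside 3.26% of all genes. Insig1, a sterol-regulated anchor of the pathway, stood at 28.1, 15.6, 84, 33.4 and 25 CPM, highest in WD 3. Hmgcs1, an early enzyme of the pathway, stood at 46.5, 10.8, 60.3, 51.4 and 26.9 CPM and Srebf2, the factor that drives the pathway, at 77, 28.3, 76, 54.1 and 61.7 CPM.

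Some circadian genes split the WD aortas in another way, with WD 2 and WD 5 on one side and WD 1 and WD 4 on the other. The 15 listed genes had no common order. WD 3 was the highest library for 5, WD 5 for 4, WD 4 for 3, WD 1 for 2 and WD 2 for 1. The core of the clock is a loop in which the protein pair of Arntl (also called Bmal1) with Clock or Npas2 binds an E-box, the letters CACGTG, in promoters of Per, Cry, Dbp and related genes, and the PER and CRY proteins then block that pair. Transcripts of Arntl and of many of its targets peak at about opposite times of day. To show where the motif lies, the 250 bases before the annotated start are printed for 4 clock genes, from RefSeq on build GRCm38.p6, 5′ to 3′ on the gene's strand, with each CACGTG in capitals. Ciart, a repressor of the clock, lies at chr3:95882229-95882478 on the minus strand, and its window holds 3 matches. Per1, at chr11:69098699-69098948 on the plus strand, and Tef, at chr15:81802423-81802672 on the plus strand, hold 1 each. Arntl itself, at chr7:113207215-113207464 on the plus strand, holds 0.
Ciart: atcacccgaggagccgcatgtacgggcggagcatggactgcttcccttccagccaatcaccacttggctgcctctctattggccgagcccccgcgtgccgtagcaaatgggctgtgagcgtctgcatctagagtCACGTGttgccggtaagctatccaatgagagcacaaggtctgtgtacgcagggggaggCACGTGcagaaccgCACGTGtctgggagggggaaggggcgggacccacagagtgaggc
Per1: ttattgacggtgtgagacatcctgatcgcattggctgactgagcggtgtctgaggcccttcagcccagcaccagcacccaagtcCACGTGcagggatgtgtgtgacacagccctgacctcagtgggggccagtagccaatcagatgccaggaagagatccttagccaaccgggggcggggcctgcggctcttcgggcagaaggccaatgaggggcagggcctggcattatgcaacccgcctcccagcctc
Tef: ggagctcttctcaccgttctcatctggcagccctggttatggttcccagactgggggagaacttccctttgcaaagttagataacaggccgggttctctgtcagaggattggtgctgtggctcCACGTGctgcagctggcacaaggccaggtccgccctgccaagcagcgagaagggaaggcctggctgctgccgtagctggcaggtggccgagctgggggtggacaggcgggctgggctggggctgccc
Arntl: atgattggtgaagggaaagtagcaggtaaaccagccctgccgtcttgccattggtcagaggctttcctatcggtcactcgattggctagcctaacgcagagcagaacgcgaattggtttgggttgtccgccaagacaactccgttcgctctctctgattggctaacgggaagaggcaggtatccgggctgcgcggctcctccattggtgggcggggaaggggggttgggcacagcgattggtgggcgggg
The motif reads the same on both strands. It occurs in the 250 bases before the start of 6.02% of 32851 annotated windows and in those of 5 of the 14 listed clock genes that RefSeq windows cover. A clock gene was counted where any of its windows held the motif, so the share of windows and the count of genes have unlike units. Where a gene had several windows, the window with the most matches was printed. The windows of Npas2, Dbp, Per3 and Nr1d1, whose levels follow, hold 0 as well, which says only that these letters are not in those bases. A match is only a run of letters and shows no binding.

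Arntl (ENSMUSG00000055116) stood at 31.9, 1.61, 16.6, 28.4 and 1.05 CPM in WD 1 to WD 5, and Npas2, a partner of its protein, at 38.5, 1.23, 19, 29 and 3.77 CPM. Dbp, a factor that the clock drives, stood at 15.6, 136, 57.1, 17.7 and 144 CPM and Ciart, with its 3 E-boxes, at 0.881, 15.6, 3.43, 1.89 and 15.2 CPM. WD 2 and WD 5 were the lowest libraries for Arntl and Npas2 and the highest for Dbp and Ciart, with WD 3 between them and the others in all 4 genes. Per3, of the period family, stood at 11.8, 21.4, 31.4, 16.6 and 56.5 CPM, highest in WD 5 and WD 3. Tef, a relative of Dbp, stood at 63.9, 82.8, 132, 66.4 and 172 CPM and Nr1d1, a repressor of Arntl, at 76.9, 79.2, 174, 92.9 and 122 CPM. Per1 stood at 34.1, 9.85, 31.7, 38.6 and 26.5 CPM, lowest in WD 2. Dbp, Ciart, Per1 and Per3 were singled out after their values were seen, and 18% of the exon bases of Dbp overlap Sphk2.

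The pattern of Arntl, Npas2, Dbp and Ciart lies on the libraries that also stand apart by exon length. The SD of Arntl was 1.94 with all 5 libraries, 1.38 after centring by exon length and 0.48 without WD 2 and WD 5. That of Dbp was 1.5, 1.79 and 1.00 in the same order, so its range was not smaller once levels were centred by length. Of 15 clock genes with a mean of at least 1 CPM 6 spanned 4-fold, 40% beside 13.1% of all genes. Without WD 2 and WD 5 none did, beside 3.26% of all genes. In the drug-treated aortas Arntl ran from 2.19 to 28.4 CPM (median 13.4) and Dbp from 16.4 to 203.9 CPM (median 36.7). The labels give no hour of tissue collection.

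Heat shock and immediate early genes were mostly highest in WD 1. Hspa1b, an inducible chaperone, stood at 555, 66.1, 418, 99.5 and 34.4 CPM in WD 1 to WD 5, against 25.9 to 667 CPM (median 296) in drug-treated aortas, with WD 1 and WD 3 high. Its near-identical neighbour Hspa1a stood at 401, 51.9, 306, 76.7 and 30.9 CPM, and the split of reads between the pair is uncertain. Hspa8, the constitutive chaperone, stood at 2035, 994, 1519, 1534 and 689 CPM and Hsp90ab1 at 1466, 473, 1022, 1053 and 619.5 CPM. Of the 12 heat shock genes 10 were highest in WD 1 and 4 spanned 4-fold, 2 without WD 2 and WD 5. Among 21 immediate early genes 14 were highest in WD 1 and 15 lowest in WD 2. Of them 8 spanned 4-fold, and none without WD 2 and WD 5, beside 13.1% and 3.26% of all genes. Ccn2, a matricellular protein, stood at 3408, 413, 1699, 1862 and 924 CPM, Ccn1, a relative, at 1288, 243, 949, 559 and 324 CPM, and Fosb, a subunit of the transcription factor AP-1, at 45.4, 5.52, 53.5, 22.9 and 34.2 CPM. In the GRCm38 annotation 23.2% of the exon bases of Ccn2 lie in Gm15270.

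The place of Vcl and Timp3 among the most variable genes rested on WD 2 and WD 5. Vcl, vinculin, which links actin to adhesion sites, stood at 63.3, 8.86, 97.6, 74.5 and 2.47 CPM in WD 1 to WD 5, and Timp3, a metalloprotease inhibitor bound to matrix, at 314, 36, 276, 345 and 32 CPM. Their exons are long, 8191 and 8144 bases, and 25.5% and 21.3% of these bases overlap Ap3m1 and Syn3. Without WD 2 and WD 5 the SD of Vcl was 0.31 instead of 2.13 and that of Timp3 was 0.16 instead of 1.73.

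Globin genes were highest in WD 2 and WD 5. Of 6 red cell genes with a mean of at least 1 CPM 4 spanned 4-fold, beside 13.1% of all genes. Without those libraries none did, beside 3.26% of all genes. Hba-a1 and Hba-a2, near-identical alpha globins whose split is uncertain, stood at 391, 2269, 443, 853 and 1519 CPM and 367, 2119, 412, 801 and 1416 CPM in WD 1 to WD 5. Hbb-bs, a beta globin, stood at 342, 1691, 377, 855 and 1352 CPM, against 421 to 1613 CPM (median 999.7) in drug-treated aortas. Alas2, which starts heme synthesis in red cell precursors, stood at 5.02, 18.3, 8.62, 20.1 and 9.66 CPM, with WD 4 and WD 2 high. The globin transcripts are short (768 exon bases for Hbb-bs), and the SD of Hbb-bs was 0.94 after centring by exon length.

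Nerve genes were sparse. Schwann cell and myelin genes summed to 310.2, 177, 256, 275 and 255 CPM in WD 1 to WD 5, most of it Pmp22 at 248, 149, 189, 219 and 209 CPM, a gene that other cells of the wall express too. Sympathetic neuron genes summed to 22.9, 10.1, 8.46, 19.5 and 5.31 CPM, and Npy, a peptide of these neurons, stood at 6.47, 5.6, 0.167, 5.36 and 0.73 CPM. In the drug-treated aortas the sympathetic sum ran from 8.69 to 192.8 CPM.

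The summed levels of all 33 lists are shown together in the heat map of gene lists. By the SD of their log2 sums, heart muscle, neutrophil, skeletal muscle and macrophage lists differ most between the WD aortas. Lcn2, given above, made up most of the neutrophil sums of 157, 126 and 194 CPM in WD 1, WD 2 and WD 4. Of 5 neutrophil genes with a mean of at least 1 CPM 1 was highest in WD 1, 2 in WD 4 and 2 in WD 2. S100a8 was among the last, at 1.23, 6.1, 0.544, 1.53 and 2.07 CPM. By the highest over the lowest sum, fatty acid synthesis (12.5-fold) ranged more widely than the macrophage list (10.6-fold). By column total, nuclear genes of oxidative phosphorylation differ least, with sums of 1929, 2356, 2400, 2179.6 and 2357 CPM in WD 1 to WD 5, although the share of mitochondrial RNA ran from 9.36% to 26.9%. This evenness depends on the scaling. With TMM their median SD was 0.51 instead of 0.34, while that of all genes was 0.40 instead of 0.53. With TMM 3 of the 20 genes spanned 4-fold, beside 8.67% of all genes, and by column total none did. Sdha, a subunit of succinate dehydrogenase, stood at 197, 88, 312, 254 and 152 CPM and Cox4i1, a subunit of cytochrome oxidase, at 178, 223, 161, 144 and 241 CPM. WD 2 and WD 5 were the lowest libraries for Sdha and the highest for Cox4i1.

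**Figure D5:**
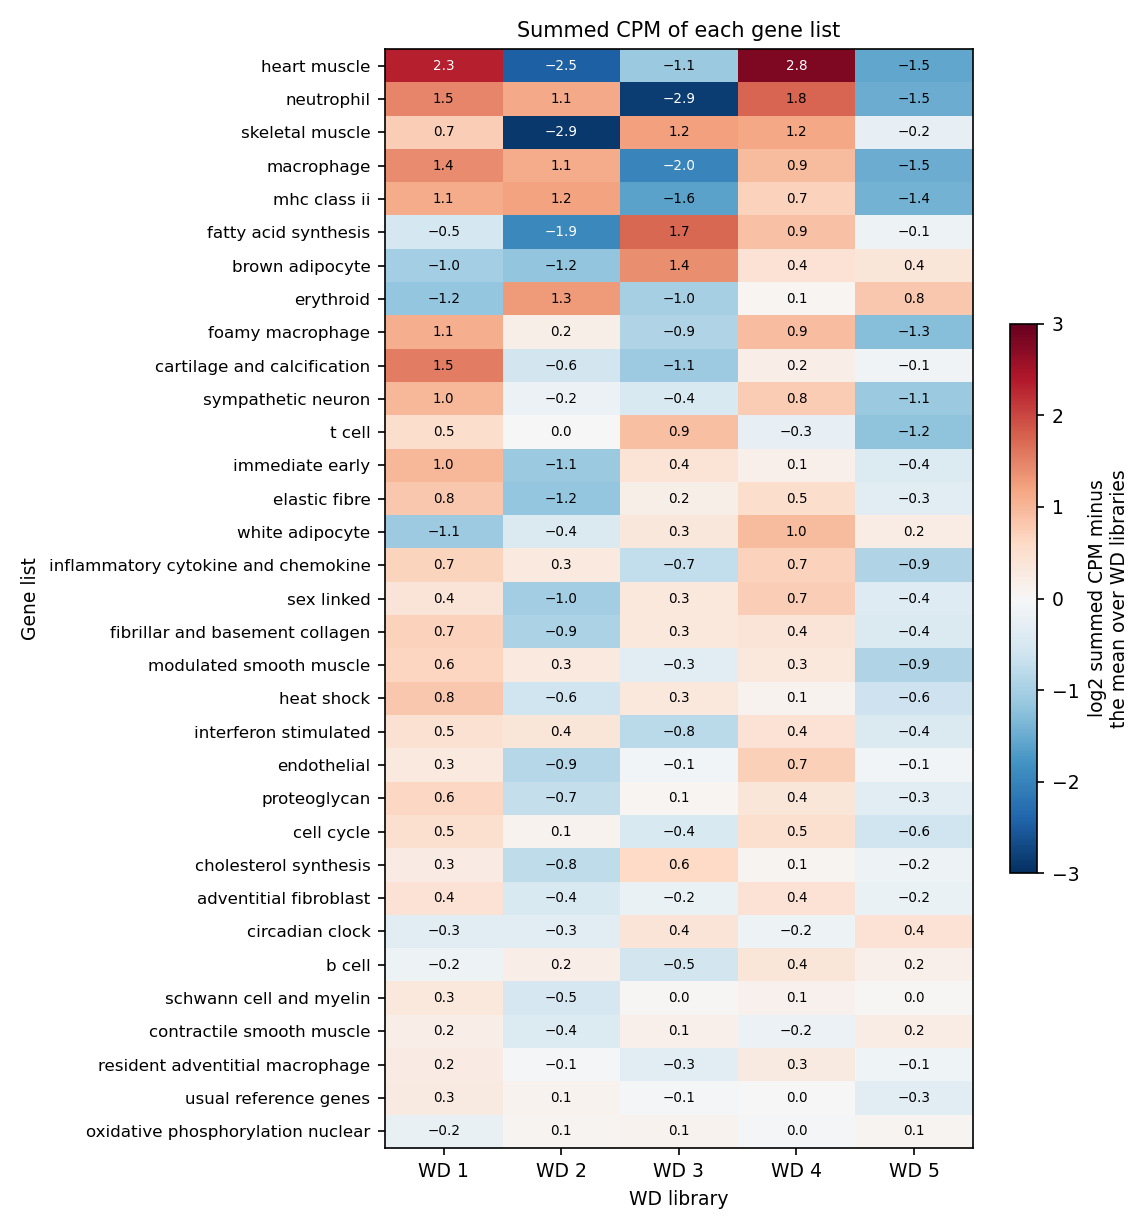
Summed CPM of each of 33 gene lists (rows, ordered from the top by their SD) in WD 1 to WD 5 (columns), as log2 minus the mean over the 5 libraries, with the value in each cell, red above the mean and blue below it. The macrophage and class II lists are red in WD 1, WD 2 and WD 4 and blue in WD 3 and WD 5, heart muscle is red in WD 1 and WD 4, and fatty acid synthesis is darkest red in WD 3. A sum is led by the most abundant genes of its list.

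Some genes were nearly equal in the 5 WD aortas. Among genes with a mean of at least 50 CPM, Skp1, a subunit of a ubiquitin ligase, had the smallest SD, 0.0554, at 167, 173, 167, 163 and 156 CPM in WD 1 to WD 5. Pcolce2, an enhancer of procollagen processing, stood at 86.1, 82.3, 77.2, 79.3 and 81.5 CPM, Smim14, a small membrane protein, at 189.5, 183, 182, 179.5 and 199 CPM and Idh2, mitochondrial isocitrate dehydrogenase, at 79.1, 76.8, 77.9, 86.1 and 80.1 CPM. Sdhc, Gatad1, Ywhaq, Ndufa9, Aktip and Glo1 complete the 10 most even genes, with SDs of 0.0746 to 0.0954. This evenness holds for CPM by column total only: with TMM scaling the SD of Skp1 was 0.42 and that of Glo1 0.33, since TMM shifts every log2 level by 0.65 in WD 2, by 0.32 in WD 5 and by -0.30 in WD 1 and WD 4.

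Genes often used as internal references were less even by column total. Gapdh, of glycolysis, stood at 1028, 1257, 927, 861 and 1121 CPM (SD 0.22) and Actb at 3959, 2616, 2734, 3032 and 2912 CPM (SD 0.23) in WD 1 to WD 5. With TMM scaling the SD of Actb, 0.30, was below that of Skp1. B2m, a subunit of MHC class I, stood at 1107, 2003, 635, 1265 and 681 CPM (SD 0.68), highest in WD 2. Gusb, a lysosomal glucuronidase, spanned 4-fold at 197, 113, 59.6, 179 and 42.4 CPM, lowest in WD 3 and WD 5 like the macrophage genes. It was the only 1 of 13 such genes to span 4-fold, a share of 7.69%, beside 13.1% of all genes. Without WD 2 and WD 5 none did, beside 3.26% of all genes.

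The untreated aortas were finally compared with the drug-treated ones, WD minus the mean of the 3 drug groups, over all 13 libraries. None of 18055 genes passed an adjusted p of 0.05 in edgeR's quasi-likelihood test with Benjamini-Hochberg adjustment, which is 0% of the genes tested. At an unadjusted p under 0.05 stood 2273 genes, 1944 of them higher and 329 lower in WD. That count was 499 without WD 2, 926 without WD 5 and 163 without both. It was 884 without combination 2 and 3539 without WD 4. DESeq2 also called 0 genes, with 2630 at an unadjusted p under 0.05, but gave an adjusted p for only 902 genes. With simulated data modelled on these libraries, the edgeR test recovered 40.5% of genes changed 2-fold and 92.5% of those changed 4-fold, with 3 and 14 false calls. Each gene was drawn on its own there, without the shared slope by exon length of WD 2 and WD 5. These shares therefore cannot be carried over to the real libraries.

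The genes nearest to the threshold did not pass it. Foxs1, a forkhead transcription factor, had the smallest p among genes higher in WD. It stood at 30.3, 16, 19.1, 19.4 and 33.9 CPM in WD 1 to WD 5 and at 2.15 to 20.6 CPM (median 11.2) in drug-treated aortas, a log2 difference of 1.31 (SE 0.28, adjusted p = 0.391 in edgeR). Myl3, given above, and Bik, which promotes apoptosis, followed it, with differences of 5.78 (SE 1.33) and 1.09 (SE 0.25). The difference of Myl3 rests on WD 1 and WD 4, the other 3 WD libraries being at 0.0767, 1.3 and 0.0811 CPM. On the lower side Ppara, a receptor that senses fatty acids, stood at 0.616, 0.844, 2.13, 2.16 and 0.852 CPM in WD 1 to WD 5 and at 1.66 to 9.44 CPM (median 4.64) in drug-treated aortas, a difference of -1.91 (SE 0.50). Rnf152, a lysosomal ubiquitin ligase, and Shox2, a homeobox factor, differed by -0.76 (SE 0.21) and -2.63 (SE 0.76), with 8 counts or fewer of Shox2 in each WD library. The adjusted p of all 6 genes in edgeR was 0.391.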

How the data were processed

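The authors deposited a table of raw read counts for 56953 Ensembl genes and 13 libraries, and these whole-number counts were used as deposited. Per the labels' protocols, RNA of whole aorta went into non-stranded poly-A libraries sequenced on a DNBseq instrument. Per the submitters' processing notes, reads were handled with STAR 2.6.1d, featureCounts and Subread 1.6.3 on the mouse build GRCm39. How reads with several matches were counted is not given in the sources used here. No 2 WD libraries were duplicates: the closest pair differed by a chi-square of 33.5 per degree of freedom.

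CPM were computed from the column total, and variation as the SD of log2(CPM + 1) over the 5 WD libraries for genes with a mean of at least 1 CPM. Counting error is small at these depths except for genes of few counts. Exon lengths and overlaps came from GENCODE annotation on build GRCm38, matched by Ensembl identifier for 91.4% of the genes, and gene coordinates of the counts are not printed because the builds differ. Promoter sequences are RefSeq's on GRCm38.p6. WD and drug-treated aortas were compared with edgeR 4.0.16 in R 4.3.3 (filterByExpr, TMM, quasi-likelihood F test, 1 mean per group, two-sided, Benjamini-Hochberg threshold 0.05), with DESeq2 1.42.0 as another tool. The edgeR test was tried on simulated counts with 200 changed genes.

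Named genes are the 10 and, among nuclear genes, the 20 most abundant, the 30 most variable at a mean of at least 10 CPM and the 15 at a mean of at least 100 CPM (predicted genes left out), the 10 most even at a mean of at least 50 CPM, up to 4 members of each of 33 gene lists, the markers and the 3 genes per direction nearest to the threshold. Apoe, Xist, Bglap, Camp, Cd36, Cd9, Cfd, Ciart, Comp, Ctsd, Dbp, Dntt, Elane, Elovl6, Lpl, Mpo, Myl4, Myl7, Ngp, Pck1, Per1, Per3, Plin2, Rag1, Runx2, Sox9, Thbs1 and Vcam1 were chosen after their values were seen. A few genes that this rule names are not reported here. The members and lists were chosen with earlier results of these data known. Alternatives were other scalings, filters and pseudocounts, the replicate number as a block, and leaving out each library. The numbers are shared between groups, and the labels do not say that they pair the samples. Over 15 same-numbered pairs, deviations from the group means correlated between -0.31 and 0.43, over 0.1 in 5. That does not settle the pairing, because samples with different numbers were not compared. Figures were drawn with matplotlib 3.10.9.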

Additional observations from a re-analysis of the deposited data

Results flagged for a closer look

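For 209 measures of the WD aortas (the named genes, library facts and list sums, on a log2 scale), the highest or lowest of the 5 libraries was set against its nearest neighbour relative to the whole range. In 9 of them 1 library stood apart by Dixon's test at the 95% level; chance flags about 1 in 20 such sets of values, which is more than were found. WD 2 stood apart on the low side for Flna, the actin crosslinker, at 1423 CPM, where the other WD libraries are at 4375 to 6304 CPM, and for Per1, the clock gene, at 9.85 CPM. WD 2 is also the library that is lowest for long transcripts, and the part of that in these values was not tested. WD 3 stood apart on the high side for Rag1 at 4.14 CPM and Dntt at 2.80 CPM, genes of developing lymphocytes that the other WD libraries hold at 0 to 0.153 CPM. WD 5 was low for Cd9, a membrane protein of foam cells, at 161 CPM, and high for the B cell gene Cd79a at 3.81 CPM. Dbh in WD 2 at 0.0767 CPM, Elane in WD 4 at 0.0900 CPM and Mpo in WD 4 at 0.0450 CPM were flagged because the other WD libraries had no count, and each value is of a gene near 0.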

How the results depend on the processing

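The count of 1923 genes that span 4-fold was 1268 with TMM scaling, 761 with levels centred by exon length, 477 without WD 2 and WD 5, and 888 (without WD 2) to 1764 when each WD library was left out in turn. It was 1416 to 2567 under the other totals and the smaller pseudocount, and 1615 and 1314 at a mean of at least 5 and 10 CPM. Of the 50 most variable genes 26 were shared with a ranking by coefficient of variation, 33 (without WD 5) to 45 when 1 WD library was left out, and 39 to 49 under the other alternatives. The 20 most abundant nuclear genes held 7.66% of counts, 9.41% of a total without mitochondrial genes, 10.99% without their copies as well, and 17.0% with the copies counted as nuclear genes; per kilobase 10 of the 20 were shared. The count thus depended on exon length, scaling and the libraries WD 2 and WD 5, while the genes at the top of the ranking were mostly shared. The comparison of WD with drug-treated aortas called 0 genes under each of its 20 alternatives; with the replicate number as a block it was also 0, with 1027 genes at an unadjusted p under 0.05, and no call changed. The smallest adjusted p over the edgeR alternatives ran from 0.186 to 0.853, and was 0.0913 in DESeq2, which adjusted only 902 genes. Filters on low counts, size factors and leaving out 1 library moved the coefficient of variation of 0.383 to between 0.329 and 0.461, and to 0.259 without WD 2 and WD 5. The alternatives without WD 2 and WD 5, centred by length or without the copies were chosen after seeing the data. With 5 libraries and no wild type, none of the differences between single aortas was tested.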
